A study of Mus musculus with 30 samples.

Results

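Olfr985 and Olfr986 are the odorant receptor (OR) genes of mouse chromosome 9 that lie just beyond Olfr984, the last measured gene of the Olfr7 cluster. They were chosen by position, as the rows with these symbols in the deposited table of the NanoString panel. That table holds 564 OR genes, of which 549 had counts in all 30 lanes. RNA abundance was measured in whole olfactory mucosa of 30 mice, all 21 days old, with 1 µg of total RNA from a single mouse in each lane of a cartridge. The mice formed 5 groups of 6. On cartridge MK38, ΔOlfr7Δ mice (homozygous, inbred 129SvEv), which lack a chromosome-engineered region of 2.4 Mb with 99 OR genes, were run beside wild-type mice (strain 129SvEvTac from Charles River in Germany, background 129S6/SvEvTac). On cartridge MK29, ΔHxΔP mice, homozygous for the loss of both the H element and the P element, were run beside their companion wild-type mice, and cartridge MK37 held the companion wild-type mice of the ΔH strain. The 18 mice of MK29 and MK37 had a mixed C57BL/6J x 129SvEv background. The 3 wild-type groups are called wild-type 129, wild-type MK29 and wild-type MK37 below.

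OR genes encode the receptors with which olfactory sensory neurons of the nose detect odorants. A mature neuron expresses a single OR gene from a large repertoire, so the RNA of an OR gene in whole mucosa rises with the number of neurons that express it and with the RNA per neuron, and these cannot be told apart in such samples. OR genes lie in clusters, and regulatory elements such as H and P act on OR genes near them. In the family naming of mouse OR genes, Olfr985 is MOR171-4 and Olfr986 is MOR104-3. The MOR171 family has further measured members inside the deleted cluster, whereas the other measured MOR104 genes lie on chromosome 7.

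Positions are first given as in the OR table that accompanies the study, for which no build was found. There Olfr985 lies on the reverse strand of chromosome 9 from 39934509 to 39935624. It starts 25.4 kb beyond the end of Olfr984. Olfr986 lies on the forward strand from 39994664 to 39995679, after a further gap of 59.0 kb. In RefSeq (GRCm38.p6) no gene separates Olfr984 from Olfr985. Between Olfr985 and Olfr986 lie 3 genes, the long noncoding RNA Gm35123, the protein-coding gene Tmem225 and the pseudogene Gm4893, none of them an OR gene. The RefSeq promoter windows of the receptors are chr9:40127990-40128289 on the minus strand for Olfr985 and chr9:40186829-40187128 on the plus strand for Olfr986 (GRCm38.p6). No measured OR gene of chromosome 9 lies beyond Olfr986.

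Each count rests on a capture probe and a reporter probe of 50 bases each, shown because they set which RNA is counted. The letters are those of the deposited table, and capitals mark the longest run of bases that also occurs in a probe of another gene of the panel.
Olfr985 capture: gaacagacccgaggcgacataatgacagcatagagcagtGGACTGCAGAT
Olfr985 reporter: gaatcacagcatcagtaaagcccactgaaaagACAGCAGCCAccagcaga
Olfr986 capture: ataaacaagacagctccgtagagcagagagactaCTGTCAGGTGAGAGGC
Olfr986 reporter: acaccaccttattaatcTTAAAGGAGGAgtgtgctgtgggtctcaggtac

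Probes were compared only with probes of other panel genes, not with transcripts. The Olfr985 probes shared at most 11 bases with Olfr1105 (capture) and 10 with Olfr558 (reporter). The Olfr986 probes shared 16 bases with Olfr1440 (capture) and 11 with Olfr806 (reporter). In ungapped alignments of at least 40 bases to probes of the same kind, the closest gene of the deleted cluster matched the Olfr985 capture probe at 23 of 40 bases (Olfr969) and its reporter probe at 22 of 43 (Olfr922). For Olfr986 these matches were 28 of 49 (Olfr979) and 19 of 40 (Olfr893). Over all panel genes, the closest matches for Olfr985 were 32 of 46 (Olfr103, capture) and 27 of 47 (Olfr1151, reporter). For Olfr986 they were 29 of 40 (Olfr1378, capture) and 28 of 47 (Olfr746, reporter). Where in the transcripts the probes bind, and whether they bind other transcripts, was not analysed here.

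Raw counts of Olfr985 ran from 501 to 1219 over the 30 lanes, and those of Olfr986 from 2144 to 4499. Both genes were far above background, taken in each lane as the mean of the 8 negative controls plus 2 standard deviations (SD). The lowest lane stood at 10.1 times background for Olfr985 and at 56.4 times background for Olfr986. The total raw count over OR genes was 618163 to 855414 in wild-type 129 lanes and 833993 to 1013430 in ΔOlfr7Δ lanes, so depth moved with genotype, and values are therefore given as scaled counts. A scaled count is the raw count after scaling each lane to its positive controls and then to 5 reference genes that these neurons express (Omp, Gnal, Cnga2, Ano2 and Adcy3). Omp, which marks mature olfactory sensory neurons, had 104400 to 113698 scaled counts in all lanes. As Omp is itself a reference gene, the scaling narrows this range, which cannot show that lanes were alike in these neurons. Sample titles of MK38 number the wild-type mice 1 to 6 and the mutants 7 to 12, so genotype cannot be told apart from this order.

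The deletion was visible up to the gene next to Olfr985. Olfr984 (MOR239-6) reached 609 ± 64.4 scaled counts in the wild-type 129 group against 23.2 ± 4.68 in the ΔOlfr7Δ group (SD, n = 6 each). The mutant level was within the range of the negative controls, whose means in the mutant lanes were 8.63 to 35.3.

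Olfr985 was higher in mice without the Olfr7 cluster. The 6 wild-type 129 mice had 615, 647, 531, 566, 567 and 509 scaled counts, with a mean of 572 ± 51.4 (SD). The 6 ΔOlfr7Δ mice had 974, 871, 890, 1043, 893 and 987, with a mean of 943 ± 68.2. The lowest mutant mouse stood above the highest wild-type mouse, and the groups did not overlap. Such separation in either direction was seen for 18.3% of the 552 OR genes tested in this comparison, a set that includes the deleted cluster. Olfr985 rose 1.65-fold (95% confidence interval 1.48 to 1.83), or by 0.72 on the log2 scale (standard error 0.075), with a Benjamini-Hochberg adjusted p of 3.4e-09 in limma. limma called 23.4% of the 552 genes higher and 12.1% lower, or 25% and 5.83% of the 515 genes outside the deleted cluster. Among those 515 genes, Olfr985 had the highest change, followed by Olfr746 at 0.56 (adjusted p = 9.05e-06 in limma), and the median change was 0.08. The mutants were labelled inbred 129SvEv and the wild-type mice came from a commercial source, so this difference cannot be told apart from the deletion.

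Olfr986, the next receptor along, did not pass the test. The wild-type 129 mice had 3262, 3447, 3447, 3525, 3505 and 3332 scaled counts, with a mean of 3420 ± 102 (SD). The ΔOlfr7Δ mice had 3568, 3622, 3638, 3622, 3441 and 3547, with a mean of 3573 ± 73.9. One mutant, at 3441, lay inside the wild-type range. The log2 change was 0.06 (95% confidence interval -0.05 to 0.18) with an adjusted p of 0.383 in limma, and it ranked 277th from the top of the 515 genes outside the cluster. Its neighbours in that order were Olfr867 and Olfr167, both with a log2 change of 0.06. The direction of this small change depended on the scaling: the log2 change was -0.02 with trimmed mean of M values (TMM) scaling and -0.04 with median-of-ratios scaling over OR genes outside the cluster. With the positive controls alone it was 0.24 (adjusted p = 0.0257 in limma), while the median OR gene outside the cluster then shifted by 0.26.

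**Figure D1:**
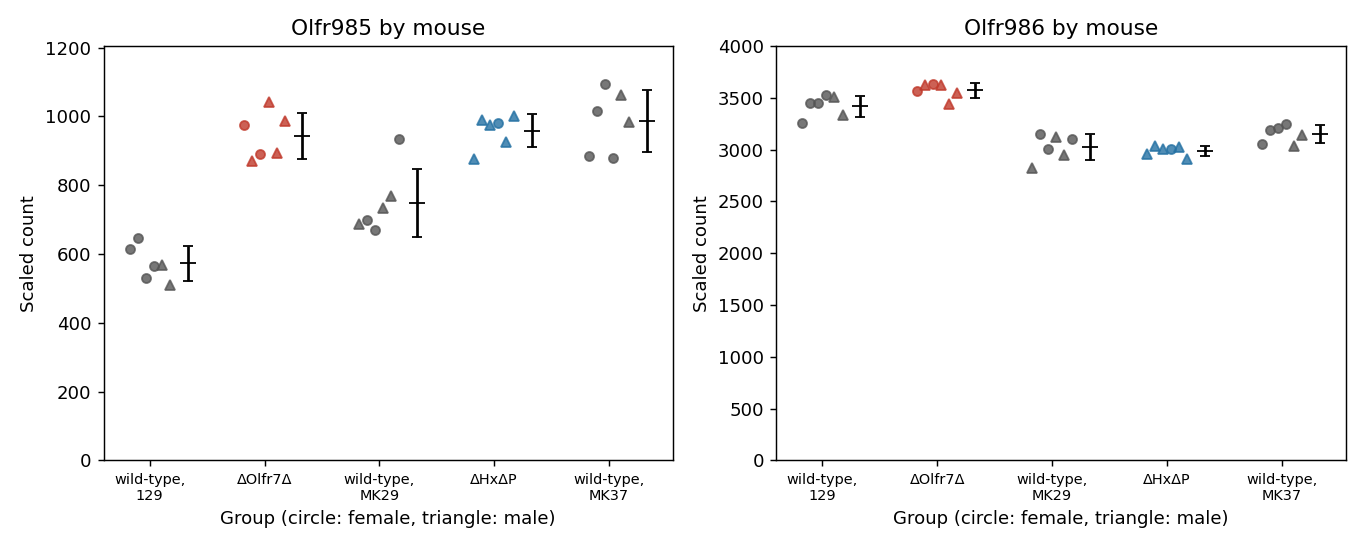
Scaled counts (y axis, starting at 0) of Olfr985 (left) and Olfr986 (right) in each of the 30 mice, by group (x axis). Circles are females, triangles are males, and black bars give the group mean ± SD (n = 6). The ΔOlfr7Δ mice lie between 871 and 1043 for Olfr985, above all wild-type 129 mice and overlapping the wild-type MK37 mice, which lie between 879 and 1095.

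The receptors changed unequally. A ratio of their counts in the same lane does not depend on scaling or depth, though the level of a gene cannot be compared with that of another gene, since their probes differ. In wild-type 129 mice there were 15.3 to 18.9 Olfr985 counts per 100 Olfr986 counts, with a mean of 16.8 ± 1.63 (SD). In ΔOlfr7Δ mice there were 24.0 to 28.8, with a mean of 26.4 ± 1.90, and the ranges did not overlap. The mean log2 ratio was higher by 0.66 in the mutants, a 1.58-fold change, with p = 0.00216 in a two-sided exact permutation test over all divisions of the 12 mice into groups of 6, the smallest p that this design allows. The difference was 0.59 among females (2 mutants, 4 wild-type) and 0.76 among males (4 mutants, 2 wild-type). These within-sex values carry no test.

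**Figure D2:**
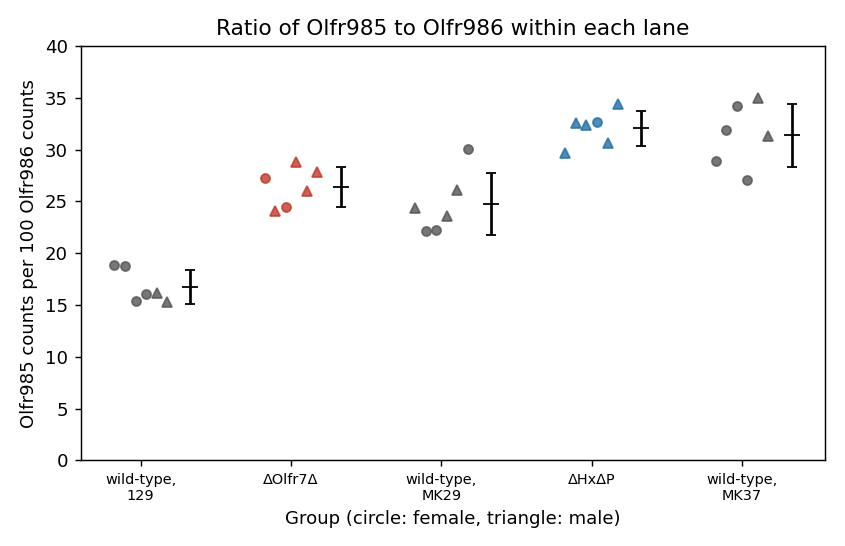
Olfr985 counts per 100 Olfr986 counts (y axis, starting at 0) within each lane for the 5 groups (x axis), with females as circles, males as triangles and the mean ± SD as black bars (n = 6). The wild-type 129 mice, at 15.3 to 18.9, are the lowest group, and the ΔHxΔP mice, at 29.7 to 34.4, overlap the wild-type MK37 mice.

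A test of the study, tTREAT, asks whether a fold change exceeds a preset threshold, on background-subtracted normalized counts and without adjustment for multiple testing. On that scale Olfr985 rose 1.72-fold and Olfr986 had a fold change of 1.05. Olfr985 was called at a threshold of 1.3. At this threshold 0.362% of the genes were called higher, which is 2 of 552, and 6.7% lower. At a threshold of 1.5, Olfr985 was not called, and 0% of the genes were called higher. It was called at 1.5 without wild-type 129 replicate 2, the mouse with the highest level of Olfr985 in its group. Olfr986 was called at no threshold of 1.3, 1.5 or 2. In the study, a 2-stage form of this test with thresholds of 2 and 1.3 called only genes of the deleted cluster on MK38. That form was not run here.

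The measured OR genes on the far side of the deletion were then set beside both receptors. Of 23 other tested genes of chromosome 9 outside the cluster, 3 rose, 1 fell and 19 did not pass the test in ΔOlfr7Δ mice, where 25% of all 515 genes outside the cluster were called higher and 5.83% lower. Their log2 changes ran from -0.26 to 0.21 with a median of 0.03, against 0.08 for all 515 genes outside the cluster. On the far side of the deletion, the nearest measured genes were Olfr18 and Olfr873. Olfr18 (MOR145-1) had a log2 change of -0.14 (adjusted p = 0.228 in limma) and Olfr873 (MOR145-2) one of -0.07 (adjusted p = 0.392 in limma). All 37 tested genes of the cluster fell, with log2 changes of -6.96 to -1.21.

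**Figure D3:**
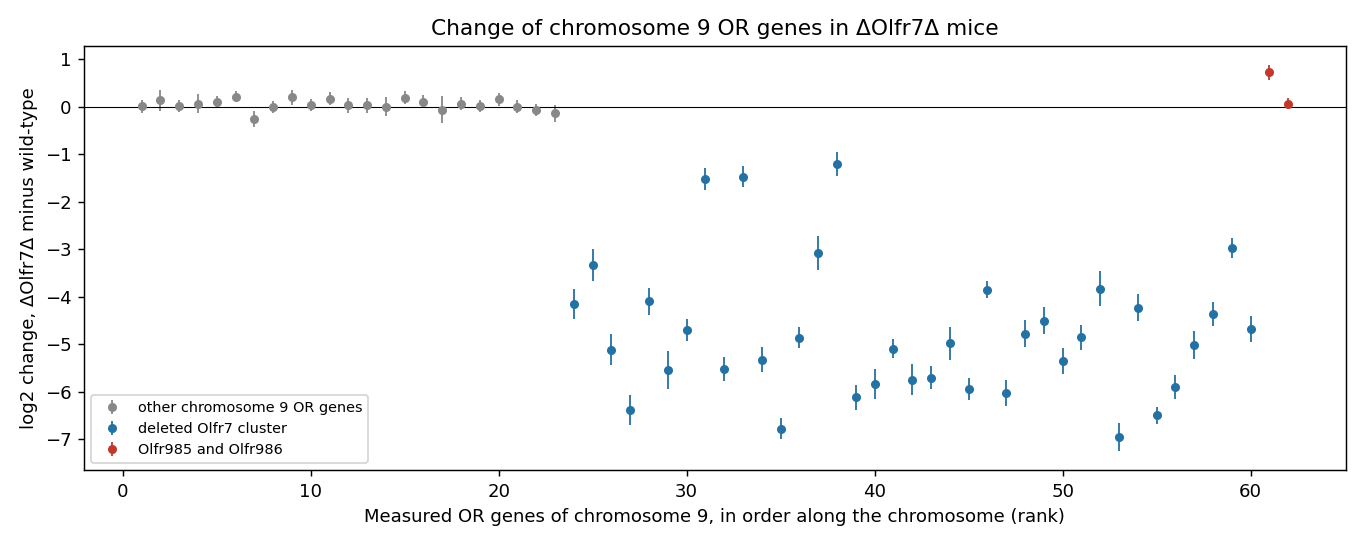
log2 change from wild-type 129 to ΔOlfr7Δ mice (y axis, with 95% confidence intervals from limma) for the 62 tested OR genes of chromosome 9 in their order along the chromosome (x axis, rank). Genes of the deleted cluster (blue) lie at -1.21 or below, Olfr985 (first red point) at 0.72, Olfr986 (second red point) at 0.06, and the other genes (grey) between -0.26 and 0.21.

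The relatives of both receptors by family name were also measured. Of 8 other measured MOR171 genes, 7 lie in the deleted cluster (Olfr930, Olfr938, Olfr957, Olfr965, Olfr967, Olfr969 and Olfr974). Their means lay at 505 to 2774 scaled counts in the wild-type 129 group and at 8.63 to 29.8 in the mutants, within the level of the negative controls. The eighth, Olfr1037 on chromosome 2, which the OR table also lists as MOR256-34P, rose by 0.34 (adjusted p = 0.000185 in limma). Its mean went from 1735 scaled counts in the wild-type 129 group to 2188 in the mutants. None of the 3 other MOR104 genes passed the test. The log2 changes were 0.13 for Olfr303 (adjusted p = 0.168 in limma), 0.10 for Olfr308 (adjusted p = 0.344 in limma) and 0.09 for Olfr523 (adjusted p = 0.258 in limma).

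Of the 5 reference genes that set the scale, 3 moved slightly between the same mice after scaling. Cnga2, a channel subunit of odorant signalling, fell by 0.09 (adjusted p = 0.00178 in limma) and Omp fell by 0.06 (adjusted p = 0.00737 in limma). Ano2, a chloride channel of the same neurons, rose by 0.13 (adjusted p = 0.0338 in limma). Adcy3 and Gnal had changes of 0.03 and -0.01. Since these 5 genes set the scale, their changes must balance, and a rise of some forces a fall of others. With the positive controls alone, all 5 changes were positive. Adcy3 rose by 0.21 (adjusted p = 0.0426 in limma) and Ano2 by 0.31 (adjusted p = 0.00631 in limma). Cnga2 at 0.09, Omp at 0.12 and Gnal at 0.17 did not pass the test. Markers of other mucosal cell types were not analysed here.

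In the mixed background, the result for Olfr985 in ΔHxΔP mice depended on the wild-type group it was compared with. The wild-type MK29 mice had 687, 698, 668, 734, 770 and 935 scaled counts of Olfr985 (mean 749 ± 97.9, SD). The mouse at 935 stood 165 above the next. The wild-type MK37 mice had 885, 1017, 1095, 879, 1061 and 984 (mean 987 ± 89.7). The ΔHxΔP mice had 877, 989, 975, 982, 927 and 1003 (mean 959 ± 47.5) and overlapped both wild-type groups. Against the 12 wild-type mice together the log2 change was 0.16 (95% confidence interval -0.06 to 0.38) with an adjusted p of 0.237 in limma. In this comparison 10.2% of 557 genes were called higher and 23.9% lower. Against the wild-type mice of the same cartridge, Olfr985 rose by 0.36 (adjusted p = 0.00556 in limma), and against wild-type MK37 the change was -0.04 (adjusted p = 0.68 in limma). In the comparison with wild-type MK37, genotype cannot be told apart from cartridge and colony. The 12 wild-type mice pool groups that themselves differed in Olfr985 by 0.40 (adjusted p = 0.00157 in limma). The call against all 12 wild-type mice also depended on scaling, with a change of 0.23 under TMM (adjusted p = 0.049 in limma) and 0.24 under median of ratios (adjusted p = 0.0426 in limma).

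Olfr986 stayed within a narrow band in the same mice. The wild-type MK29 mice had 2825, 3154, 3008, 3118, 2947 and 3106 scaled counts (mean 3026 ± 125, SD). The wild-type MK37 mice had 3059, 3192, 3207, 3252, 3035 and 3144 (mean 3148 ± 85.9). The ΔHxΔP mice had 2954, 3040, 3009, 3007, 3027 and 2914 (mean 2992 ± 48.2), all inside the wild-type MK29 range. The log2 change against all 12 wild-type mice was -0.04 (95% confidence interval -0.13 to 0.04) with an adjusted p of 0.404 in limma. It was 0.03 under both TMM and median-of-ratios scaling. None of the 3 other MOR104 genes passed the test, and among 8 other MOR171 genes Olfr967 rose by 0.35 and Olfr930 fell by 0.36.

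Wild-type mice differed from each other in Olfr985 as well. Wild-type MK37 mice had more Olfr985 than wild-type MK29 mice, by 0.40 on the log2 scale (95% confidence interval 0.22 to 0.59, adjusted p = 0.00157 in limma), and their ranges overlapped through the mouse at 935. Of 557 genes tested, 29.3% were called higher and 10.8% lower. Olfr986 had a log2 change of 0.06 (adjusted p = 0.352 in limma), which was -0.03 under TMM and -0.05 under median of ratios. Olfr984, present in these mice, was higher in wild-type MK37 by 0.33 (adjusted p = 0.00118 in limma). Colony and cartridge cannot be told apart here.

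Wild-type 129 mice had less Olfr985 and more Olfr986 than the 12 wild-type mice of mixed background. Olfr985 was lower by a log2 change of -0.58 (95% confidence interval -0.80 to -0.36, adjusted p = 5e-05 in limma), and the ranges did not overlap. Olfr986 was higher by 0.15 (95% confidence interval 0.07 to 0.23, adjusted p = 0.00227 in limma), also without overlap, but by 0.08 with the positive controls alone (adjusted p = 0.339 in limma). In this comparison 33.3% of 549 genes were called higher and 37.3% lower, and ranges did not overlap for 38.3%. Olfr984 was lower by a log2 change of -0.71 (adjusted p = 3.86e-07 in limma). Of the 8 other MOR171 genes, 4 were higher and none was lower in wild-type 129 mice, with Olfr957 at 0.41 and Olfr938 at 0.38. Of the 3 other MOR104 genes, Olfr308 was lower at -0.30 (adjusted p = 0.000295 in limma). Background, colony and cartridge cannot be told apart in this comparison.

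**Figure D4:**
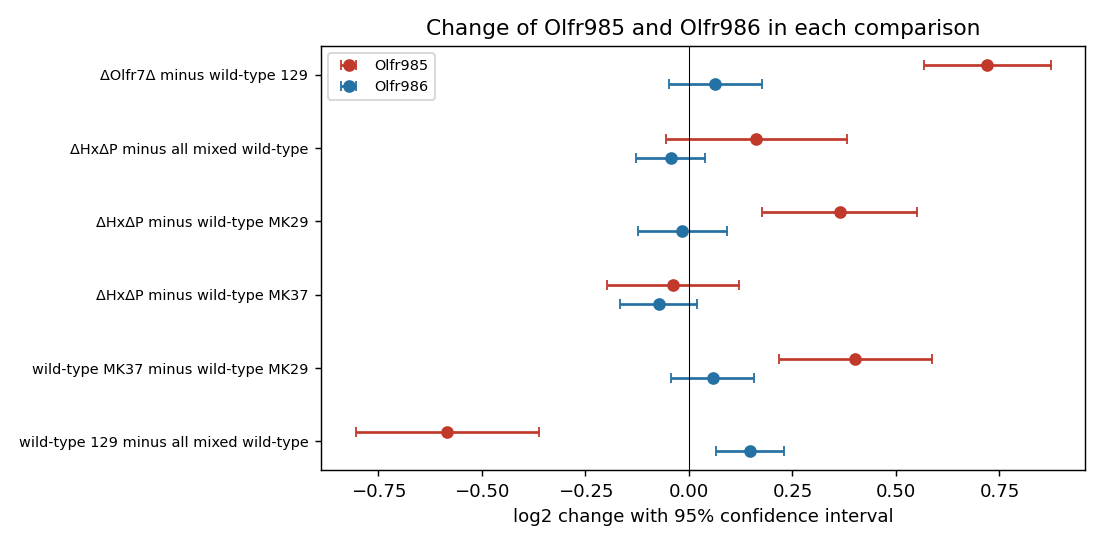
log2 change with 95% confidence interval from limma (x axis) of Olfr985 (red) and Olfr986 (blue) in each comparison (y axis). Olfr985 lies between -0.58 and 0.72 and Olfr986 between -0.07 and 0.15.

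Across the 5 groups, mean Olfr985 rose in the order wild-type 129 (572), wild-type MK29 (749), ΔOlfr7Δ (943), ΔHxΔP (959) and wild-type MK37 (987). Neighbours in the order of each receptor's group means were compared by a two-sided exact permutation test of log2 scaled counts, with Benjamini-Hochberg adjustment over 8 pairs. The pairs were set by sorting the same values, which limits these p-values. In pairs from different cartridges, cartridge cannot be told apart from genotype, background or colony. Wild-type MK29 stood above wild-type 129 by 0.38 without overlap (exact adjusted p = 0.00866). ΔOlfr7Δ stood above wild-type MK29 by 0.34 with overlap (exact adjusted p = 0.0231). The upper 3 groups overlapped, and neighbours differed by 0.03 (ΔHxΔP above ΔOlfr7Δ) and 0.04 (wild-type MK37 above ΔHxΔP), each with an exact adjusted p of 0.634. The ΔOlfr7Δ mice, without their cluster, had Olfr985 counts (871 to 1043) that overlapped those of wild-type MK37 mice (879 to 1095), which carry it, on a different background and cartridge.

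The order for Olfr986 was ΔHxΔP (2992), wild-type MK29 (3026), wild-type MK37 (3148), wild-type 129 (3420) and ΔOlfr7Δ (3573). The groups of MK38 were the upper ones. Wild-type 129 stood above wild-type MK37 by 0.12 without overlap (exact adjusted p = 0.00866). ΔOlfr7Δ stood above wild-type 129 by 0.06 with overlap (exact adjusted p = 0.0303). limma, which draws each gene's variance towards that of all genes, did not call this step (adjusted p = 0.383 in limma). These adjustments are over unlike sets, 8 pairs against 552 genes. The direction of this step also reversed under TMM (-0.02) and median-of-ratios (-0.04) scaling. The lower pairs differed by 0.02 (exact adjusted p = 0.634) and 0.06 (exact adjusted p = 0.121).

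Olfr986 varied little between mice of a group. Its coefficient of variation was 1.61% to 4.14%, where counting error alone would give 1.54% to 1.95%. Ranked by the SD of log2 scaled counts from the smallest, it was 1st of 513 genes in ΔOlfr7Δ mice, 2nd of 551 in ΔHxΔP, 11th of 552 in wild-type 129, 16th of 553 in wild-type MK29 and 12th of 557 in wild-type MK37. Olfr985 had a coefficient of variation of 4.96% in ΔHxΔP mice to 13.1% in wild-type MK29 mice, where counting error would give 3.01% to 4.25%. Its rank ran from 24th of 551 in ΔHxΔP to 394th of 553 in wild-type MK29. Both receptors were ranked among genes of all levels, and counting error is relatively smaller at higher counts. Genes of like level were not ranked separately.

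Neither receptor was called different between the sexes. With group in the model, females minus males gave a log2 difference of 0.02 for Olfr985 (95% confidence interval -0.09 to 0.14) and 0.03 for Olfr986 (95% confidence interval -0.03 to 0.09), each with an adjusted p of 0.992 in limma. Of 509 OR genes tested outside the cluster, 0% were called in limma, with 26 at an unadjusted p under 0.05. In wild-type 129 mice Olfr985 had 590 scaled counts in females and 538 in males on average, and in ΔOlfr7Δ mice 932 and 948. The effect of the Olfr7 deletion was not called different between the sexes for either receptor (adjusted p = 0.999 each in limma, where 0 of 552 genes were called and 16 had an unadjusted p under 0.05).

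The OR genes whose log2 scaled counts ran most like those of each receptor over the 30 mice were found among 548 genes with counts in every lane. For Olfr985 these were Olfr412 (chromosome 11, Pearson r = 0.823), Olfr448 (chromosome 6, r = 0.700) and Olfr259 (chromosome 2, r = 0.679). Within groups, after subtracting group means, r was 0.397, 0.403 and 0.207. For Olfr986 they were Olfr459 (r = 0.915) and Olfr460 (r = 0.912), both on chromosome 6, and Olfr1513 (chromosome 14, r = 0.906). Within groups r was 0.592, 0.495 and 0.132. These values are descriptions, since the mice share cartridges, scaling and groups, and the pooled r exceeded the r within groups for all 6 genes. Olfr459, for example, had mean scaled counts of 1551 in wild-type 129 and 1920 in ΔOlfr7Δ mice but 784 to 1294 in the 3 other groups. None of the 6 genes lies on chromosome 9. Most tested genes of that chromosome belong to the deleted cluster, so their loss in ΔOlfr7Δ mice limits how high they could rank.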

How the data were processed

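NanoString counts were deposited by the authors as raw, non-normalized counts per probe and lane, with a table column for each of 30 mice. Per the authors' methods, normalization uses the 6 positive controls, then 5 reference genes, then subtraction of a background taken from the 8 negative controls (mean plus 2 SD). Here all 30 lanes were scaled together to positive controls and reference genes. log2(scaled count + 1) was tested with limma 3.58.1 (R 4.3.3, empirical Bayes with trend), two-sided, over OR genes whose median in wild-type mice reached 100 normalized counts, with Benjamini-Hochberg adjustment over all of them and calls at 0.05. A fold change on this scale slightly understates low genes. tTREAT used p under 0.01. The limma and tTREAT steps were tested on simulated data. Scaling, background, filter, pseudocount, sex and single mice were varied. Named genes were the receptors, Olfr984, the nearest genes across the deletion, family members, reference genes, the 3 most alike genes and neighbours in rank of change; Olfr883 was not analysed here. Members, lists and tests were chosen with earlier results of these data known. Errors are between mice, except where counting error is named, which covers counting alone.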

Additional observations from a re-analysis of the deposited data

How the results depend on the processing

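The rise of Olfr985 in ΔOlfr7Δ mice kept its direction and call under 7 other settings of scaling, background, filter, pseudocount and sex (log2 change 0.62 under median of ratios to 0.90 with the positive controls alone) and without each of the 12 mice in turn (0.69 to 0.76). Its change relative to Olfr986 was 0.63 to 0.69 without single mice. Its lower level in wild-type 129 than in mixed wild-type mice (-0.62 to -0.55) and its higher level in wild-type MK37 than in wild-type MK29 (0.37 to 0.47) also kept their calls without single mice. In tTREAT at 1.5, Olfr985 was called with the positive controls alone (log2 change 0.96), and was 0.75 to 0.81 without single mice.

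Other results moved more. Under TMM, the changes of Olfr986 were -0.020 (ΔOlfr7Δ), 0.026 (ΔHxΔP) and -0.029 (wild-type MK37 against MK29), and under median of ratios -0.037, 0.029 and -0.052. With the positive controls alone, Olfr986 changed by 0.24 in ΔOlfr7Δ and by 0.084 between backgrounds, and the differences between sexes turned to -0.040 for Olfr985 and -0.036 for Olfr986. For ΔHxΔP, Olfr985 changed by 0.23 under TMM and 0.24 under median of ratios. With other wild-type mice and the same scaling, it changed by 0.36 against wild-type MK29 and by -0.038 against wild-type MK37. Genes called in ΔOlfr7Δ were 283 higher and 41 lower with the positive controls alone, against 129 and 67, with 119 lower under TMM and 129 under median of ratios. In ΔHxΔP, 121 were higher under TMM and 122 under median of ratios, against 57, and 88 lower with the positive controls alone, against 133. Between wild-type MK37 and MK29, 95 were higher under median of ratios, against 163, and 107 (TMM), 119 (median of ratios) and 32 (positive controls alone) lower, against 60. The cause was not tested.

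Wild-type mice carry title numbers 1 to 6 on each cartridge, and the number is the only link given between them. Same-numbered mice of MK37 and MK38 were also of the same sex. Deviations of same-numbered wild-type mice of different cartridges correlated over genes at -0.299 to 0.220, and over 0.1 in 6 of 18 pairs. The 6 pairs of MK38 and MK37 gave 0.018 to 0.147, with 4 over 0.1. In 2 of 18 pairs the same number gave the best correlation. With this replicate block, wild-type MK37 against MK29 gave 0.40 for Olfr985 (adjusted p = 0.00359 in limma) and 0.06 for Olfr986 (adjusted p = 0.431 in limma), with 153 genes higher and 55 lower. Wild-type 129 against mixed wild-type, a fit added after seeing the data, gave -0.58 (adjusted p = 0.000503 in limma) and 0.15 (adjusted p = 0.00521 in limma), with 177 higher and 201 lower. Each mutant group is numbered 7 to 12, unlike the wild-type mice it was compared with, so no paired analysis was possible for the deletions. Both planned raw-count models were not run, because a check of the unit did not read the values as counts. The deposited values are raw whole-number counts.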
